A study of Mus musculus with 59 samples.

Results

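The comparison described here is that of carrier with non-carrier serum on arrays NCAR107 to HEMI112 of the series, 6 of its 59 arrays. The members were chosen by their titles, in which NCAR stands for non-carrier, HEMI for hemizygous carrier, and the number names the array. NCAR107, NCAR108 and NCAR109 hold embryoid bodies kept for 24 h in serum from non-carrier littermates, and HEMI110, HEMI111 and HEMI112 embryoid bodies kept for 24 h in serum from mice hemizygous for a mutant human SOD1 transgene, which model amyotrophic lateral sclerosis in the mouse. The serum donors were males of a C57BL/6 by SJL F1 background, taken before physical symptoms, and the labels of all 6 arrays carry the mark of 9 weeks. Among the other arrays of the series, used below for comparison and for a shared spread, some carry 10 weeks. The responding cells were the same on every array, embryoid bodies that contain spinal motor neurons and that were grown from the mouse embryonic stem cell line HBG3, in which a motor neuron promoter (HB9) drives a fluorescent protein. No label gives these cells the transgene. The study's methods describe serum samples from several mice of each kind, but no label ties an array to a mouse or a culture, so p-values measure the spread between these arrays, which may be technical. The non-carrier arrays have the 3 lower numbers and the carrier arrays the 3 higher ones, so that serum and any order of handling that the numbers may follow cannot be told apart.

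When amino acids run short, or when unfolded proteins gather in the endoplasmic reticulum (ER), cells phosphorylate the initiation factor eIF2alpha, slow most protein synthesis and still translate ATF4. This response is called the integrated stress response. ATF4, with its partners and with its target CHOP (encoded by Ddit3), switches on genes for amino acid uptake, amino acid synthesis and the charging of tRNAs. A separate branch of the ER response runs through ATF6 and XBP1 and switches on the chaperones of the ER lumen, and a further system, that of the hypoxia-inducible factors, switches on glycolysis, glucose uptake and angiogenic signals.

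On these arrays the mean level of genes under ATF4 and CHOP was lower on each carrier array than on any non-carrier array. Slc7a11, a cystine transporter, had the largest decrease of all genes, with a log2 change of -2.01 (standard error 0.430), or 4.02-fold. Its 3 carrier values lay below a log2 value of 6, where signal over background is unknown, so the size of this change is uncertain. Hypoxia-inducible genes had a median change of -0.47 and ER lumen chaperones one of 0.15, with no member called. No gene passed an adjusted p of 0.05 when the spread was taken from the 6 arrays alone (limma with Benjamini-Hochberg adjustment over 19613 genes, 0% called), whereas 63 genes (0.321%) were called lower and 1 gene (0.0051%) higher when the spread was shared over all 59 arrays. The stress genes were widely spread among the 3 non-carrier arrays, with array NCAR109 highest and array NCAR108 lowest. Without array NCAR109 the second count was 25, as described further down.

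Some of the genes named below carry in their promoter the joint C/EBP and ATF element TGATGNAAN, to which ATF4 and its partners bind. In a table of RefSeq promoters (mouse build GRCm38.p6, 250 bases before to 50 after the start), 15345 of the measured genes had an entry and 3.68% of these held the letters TGATGNAAN on either strand, against 4.5% of all 27025 genes of the table. The share was 33.3% among the genes called lower with the shared spread (16 of the 48 with an entry). It was 37.5% for the ATF4 and CHOP factors and feedback genes (6 of 16), 38.5% for the cytosolic aminoacyl-tRNA synthetases (5 of 13), 22.2% for amino acid transporters (2 of 9) and 21.4% for amino acid synthesis (3 of 14). None of the 15 ER lumen chaperones and none of the 17 hypoxia-inducible genes with an entry held it. The stretches shown next lie upstream of the start of 5 genes whose levels are given below, with the element on either strand in capitals.
Slc7a11 (chr3:50443631-50443719, minus strand): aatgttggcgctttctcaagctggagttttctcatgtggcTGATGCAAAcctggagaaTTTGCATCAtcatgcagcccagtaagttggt
Asns (chr6:7693210-7693272, minus strand): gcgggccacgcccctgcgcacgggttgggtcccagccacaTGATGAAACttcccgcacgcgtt
Chac1 (chr2:119351008-119351096, plus strand): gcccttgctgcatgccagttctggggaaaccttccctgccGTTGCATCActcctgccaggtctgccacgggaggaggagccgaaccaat
Atf3 (chr1:191183396-191183484, minus strand): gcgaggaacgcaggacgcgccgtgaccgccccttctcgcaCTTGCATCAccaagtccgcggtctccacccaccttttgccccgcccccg
Tars (chr15:11399659-11399714, minus strand): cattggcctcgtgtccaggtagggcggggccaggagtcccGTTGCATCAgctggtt
Slc7a11 held 2 copies, which start 66 and 48 bases before the start of transcription, and that of Asns begins 23 bases before it. A match of letters is a description, and binding was not measured.

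The chaperones of the ER lumen carried another element. The ER stress response element, CCAAT and CCACG set 9 bases apart, was found in 8 of the 15 chaperone promoters (53.3%) against 0.163% of the measured genes with an entry, and in none of the ATF4 and CHOP list. Hspa5, which encodes the main ER chaperone BiP, and Calr, which encodes calreticulin, are shown, with the element in capitals.
Hspa5 (chr2:34771985-34772083, plus strand): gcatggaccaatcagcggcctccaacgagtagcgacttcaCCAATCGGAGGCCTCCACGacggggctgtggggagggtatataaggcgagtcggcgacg
Calr (chr8:84847035-84847133, minus strand): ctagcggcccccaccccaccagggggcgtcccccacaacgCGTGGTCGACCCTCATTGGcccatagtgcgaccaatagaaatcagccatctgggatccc
Letters of the hypoxia response element, ACGTG, are short and therefore common. They were in 24.5% of the measured genes with an entry and in 13 of the 17 hypoxia-inducible genes (76.5%), but also in 46.7% of the ER lumen chaperones, 46.2% of the cytosolic synthetases, 43.8% of the genes called lower, 37.5% of the ATF4 and CHOP list, 35.7% of the synthesis list and 33.3% of the transporters. They are shown in capitals in 1 of the 2 promoters of Pfkfb3, which makes an activator of glycolysis.
Pfkfb3 (chr2:11553945-11554029, minus strand): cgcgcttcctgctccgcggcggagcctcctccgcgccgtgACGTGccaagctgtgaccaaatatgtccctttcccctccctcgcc
The lists were written by function, and known binding of these factors may have entered them.

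Values are log2 of the deposited intensities, 1 value per gene and array. The 6 arrays were alike as a whole. Their median intensities lay between 155 and 163, and the Pearson correlations of their log2 values over all genes, which are not independent replicates, between 0.991 and 0.995. The lowest of these was that of the non-carrier arrays NCAR108 and NCAR109. The first principal component, with 35.9% of the variance, put arrays NCAR108, HEMI111 and HEMI112 against NCAR107, NCAR109 and HEMI110 and so did not part the sera. The median change of all genes was 0.00, with 9559 genes lower and 10054 higher. The 3 carrier arrays all lay below the 3 non-carrier arrays in 5.26% of the genes and all above them in 5.27%. At an unadjusted p of 0.05, limma on the 6 arrays left 526 genes lower (2.68%) and 371 higher (1.89%), and the smallest adjusted p was 0.238. An exact permutation test of 3 against 3 arrays cannot go below a two-sided p of 0.1 for a single gene.

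The labelled cell type was checked against its markers, which were present on every array. Tubb3, the neuronal tubulin, had log2 values between 12.36 and 12.56 on the 6 arrays, and Isl1, a LIM factor of motor neurons, between 10.52 and 10.66. Lhx3, its partner in motor neurons, had a mean of 9.06 ± 0.04 (SD, n = 3) with non-carrier and 9.06 ± 0.06 (SD, n = 3) with carrier serum. Mnx1, which encodes HB9, changed by -0.13 and Olig2, the factor of motor neuron progenitors, by -0.21 on the log2 scale, and in neither did the groups part. Of the 9 motor neuron transcription factors measured, Isl2 was higher at an unadjusted p of 0.00257 (limma), with 9.48, 9.59 and 9.51 against 9.91, 9.76 and 9.82, Lmo4 had a change of -0.17, and neither was called. In a mixed culture, fewer cells of a kind and less RNA per cell cannot be told apart. The cells' own Sod1 gene gave 11.65, 11.74 and 11.69 against 11.75, 11.77 and 11.78, a change of 0.07 (standard error 0.0545).

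Of the 17 measured transcription factors and feedback genes of the ATF4 and CHOP pathway, all 17 had a lower mean with carrier serum, with a median log2 change of -0.69. In 15 of them all carrier arrays lay below all non-carrier arrays, against 5.26% of all genes. 10 were called with the shared spread, against 0.321% of all genes called lower, and none on the 6 arrays alone. Atf4 itself, the transcription factor at the head of the response, had log2 values of 10.47, 10.17 and 10.60 on the non-carrier arrays NCAR107, NCAR108 and NCAR109, and of 9.78, 9.86 and 9.63 on the carrier arrays HEMI110, HEMI111 and HEMI112. The groups were apart, and array NCAR108 lay nearest to the carrier arrays. Its log2 change was -0.65 (standard error 0.124, adjusted p 0.822 on the 6 arrays and 0.00179 with the shared spread, both limma), or 1.57-fold lower. Ddit3, which encodes CHOP, gave 8.02, 7.84 and 8.31 against 7.36, 7.08 and 7.05, a change of -0.89 with an adjusted p of 0.0247 in the limma fit that shares the spread.

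Atf3, a stress factor of the same family, gave 7.72, 7.32 and 8.73 with non-carrier serum and 6.50, 6.60 and 6.33 with carrier serum. Array NCAR109 stood more than 1 log2 unit above the next array, so that the non-carrier SD was 0.725 against a carrier SD of 0.139. Its change was -1.45 (adjusted p 0.000144 with the shared spread, limma). Chac1, a glutathione-degrading enzyme and a target of ATF4 and CHOP, gave 10.88, 10.42 and 11.53 against 9.46, 9.51 and 8.67. The gap between the lowest non-carrier and the highest carrier array was wider here than in Atf4, and the change was -1.73, or 3.31-fold. Trib3, a pseudokinase that feeds back on ATF4, had 8.11, 8.02 and 8.45 against 7.51, 7.56 and 7.42, a change of -0.69.

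Of the brakes on translation and growth in the same list, Eif4ebp1, the inhibitor of cap-dependent translation, had a log2 change of -1.30, with 9.75, 9.38 and 10.28 against 8.69, 8.73 and 8.09. Sesn2, an inhibitor of the growth kinase complex mTORC1, changed by -0.89 and Ddit4, another inhibitor of it, by -0.81. Ddit4 was tight in both groups, with 9.57, 9.30 and 9.63 against 8.56, 8.76 and 8.76. It was not called with the shared spread (adjusted p 0.217, limma), but passed on the 6 arrays alone when dim genes were left out or when eBayes was run with trend and robust. Stc2, a secreted glycoprotein induced by ER stress, changed by -1.18 and Cebpg, a binding partner of ATF4, by -0.86. Ppp1r15a, the phosphatase subunit that ends the response, changed by -0.56 and was not called (adjusted p 0.0601, limma, shared spread). Nupr1 and Fgf21 were the members whose groups overlapped, with changes of -0.35 and -0.09.

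**Figure D1:**
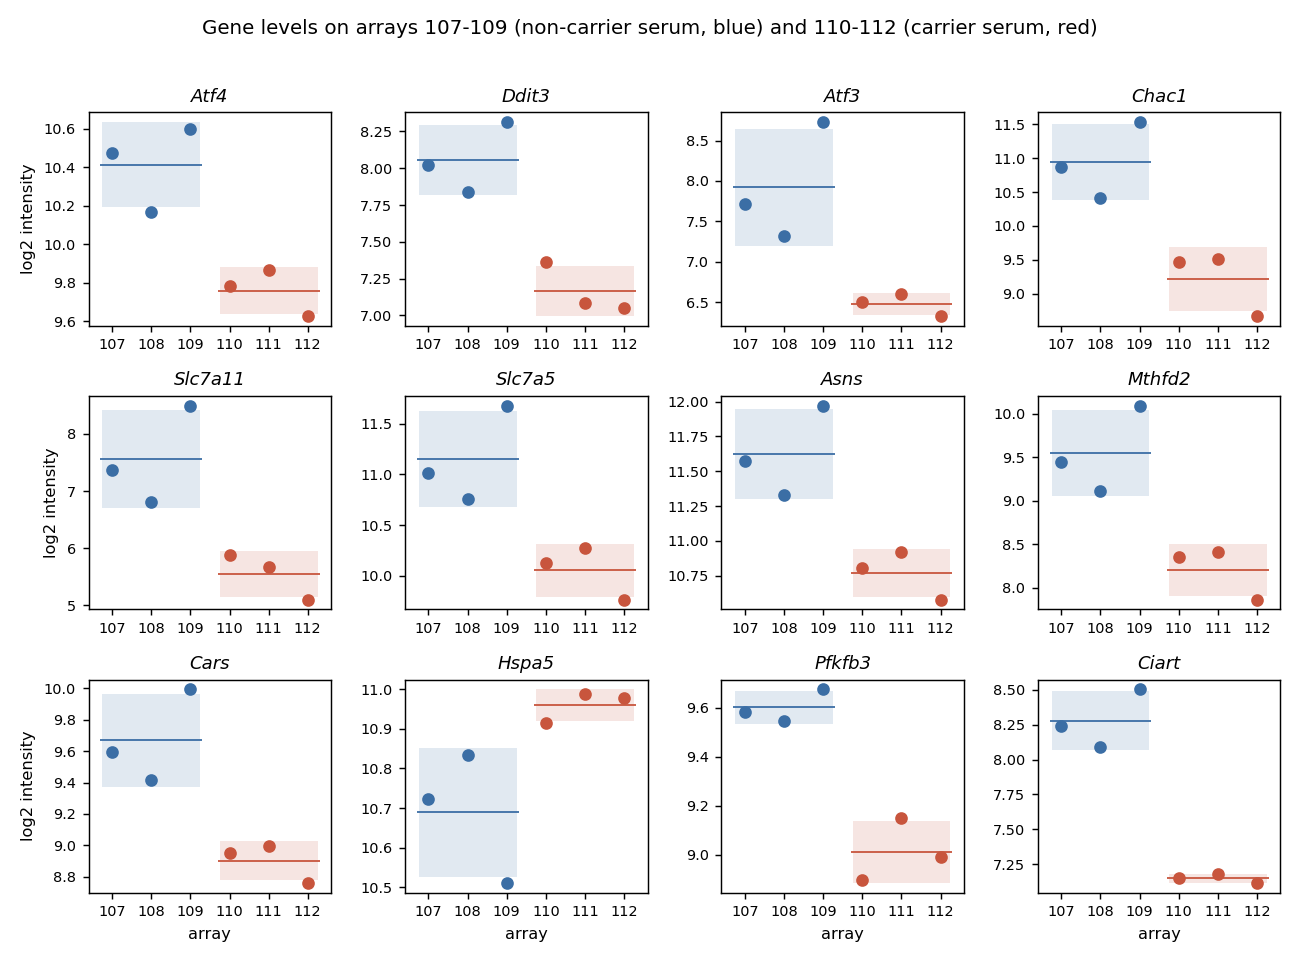
Log2 intensity of 12 genes (vertical axes, 1 panel per gene, each with its own scale) on the 6 arrays (horizontal axes), with points for arrays, lines for the means of the groups and bands for 1 SD. In 11 of the panels the 3 carrier arrays lie below the 3 non-carrier arrays, with array NCAR109 highest, and in that of Hspa5 they lie above, with array NCAR109 lowest.

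Amino acid transporters had the 2 largest decreases of all genes, in Slc7a11 and Slc7a3. Of 13 measured, 10 were lower and 3 higher, with a median log2 change of -0.64. 7 were called lower with the shared spread (0.321% of all genes). The carrier arrays were all below in 8 (5.26% of all genes) and all above in 1 (5.27%). Slc7a11, the cystine-glutamate exchanger, gave 7.36, 6.81 and 8.50 with non-carrier serum and 5.88, 5.67 and 5.10 with carrier serum. All carrier arrays were lower, and the non-carrier arrays themselves spanned more than 1 log2 unit (SD 0.86). The adjusted p from limma was 0.822 on the 6 arrays and 1.48e-06 with the shared spread. Slc7a3, a carrier of arginine and lysine, changed by -1.81, with 8.49, 8.06 and 9.71 against 7.08, 7.14 and 6.63, and Slc7a1, of the same family, by -1.19.

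Slc7a5, the carrier of leucine and other large neutral amino acids, gave 11.02, 10.76 and 11.68 against 10.12, 10.27 and 9.76, a change of -1.10. Its heavy chain Slc3a2, shared with Slc7a11, changed by -0.64. Slc1a4, which carries alanine, serine and cysteine, changed by -1.01 and the glycine carrier Slc6a9 by -0.82. Members of the list without a called change included Slc38a2, a glutamine carrier also named as an ATF4 target, at -0.20 with overlapping groups, and Slc38a4, the 1 member with all carrier arrays above, at 0.29 (unadjusted p 0.0494, limma).

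Of the 18 measured enzymes that make serine, one-carbon units and other non-essential amino acids, 14 were lower and 4 higher, with a median of -0.64. 10 were called lower with the shared spread (0.321% of all genes). Asns, asparagine synthetase, a classical target of ATF4, gave 11.57, 11.33 and 11.97 with non-carrier serum and 10.80, 10.92 and 10.58 with carrier serum, a change of -0.86. Mthfd2, of the mitochondrial folate pathway, gave 9.45, 9.12 and 10.10 against 8.35, 8.40 and 7.86, a change of -1.35. The folate enzymes were counted by compartment as well. Shmt2, Aldh1l2 and Mthfd1l, all mitochondrial, changed by -0.81, -0.67 and -0.61 and were called with the shared spread. Of their cytosolic counterparts, Shmt1 changed by -0.01 with overlapping groups and Mthfd1 by 0.10 with all carrier arrays above, and neither was called.

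Further called members were Cth, which makes cysteine (-1.20), Pycr1 and Aldh18a1, which make proline (-0.85 and -0.74), Psat1 of serine synthesis (-0.74) and Gpt2, an alanine transaminase (-0.69). Phgdh, the first enzyme of serine synthesis, changed by -0.32 and was not called (adjusted p 0.112, limma, shared spread), though its groups did not overlap. Glul, which makes glutamine, changed by 0.06 with overlapping groups. Pck2, a mitochondrial enzyme of gluconeogenesis and a target of ATF4 that is in none of these lists, changed by -0.97.

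The enzymes that charge tRNAs were lower in the cytosolic list and not in the mitochondrial one, a contrast that was not tested itself. Of 19 cytosolic aminoacyl-tRNA synthetases, 18 were lower and 1 higher, with a median of -0.39. 9 were called lower with the shared spread (0.321% of all genes), and in 15 all carrier arrays lay below (5.26% of all genes). Of 16 mitochondrial ones, 8 were lower and 8 higher, with a median of 0.00, and none was called. Cars, the cysteine enzyme, gave 9.60, 9.41 and 9.99 against 8.95, 8.99 and 8.76 and had the largest change of the list, -0.76. Array NCAR109 was again highest and array HEMI112 lowest.

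Lars, Tars, Mars, Yars, Nars, Gars, Iars and Aars, for leucine, threonine, methionine, tyrosine, asparagine, glycine, isoleucine and alanine, changed by between -0.64 and -0.39 and were called. Tars had 9.08, 8.84 and 9.31 with non-carrier and 8.51, 8.54 and 8.49 with carrier serum, so that its carrier SD was 0.0254. Eprs and Sars, for glutamate with proline and for serine, changed by -0.42 and -0.34 and were not called. Hars and Qars, for histidine and glutamine, each changed by -0.02, and Kars and Farsa, for lysine and phenylalanine, by -0.03 and 0.02, all with overlapping groups.

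**Figure D2:**
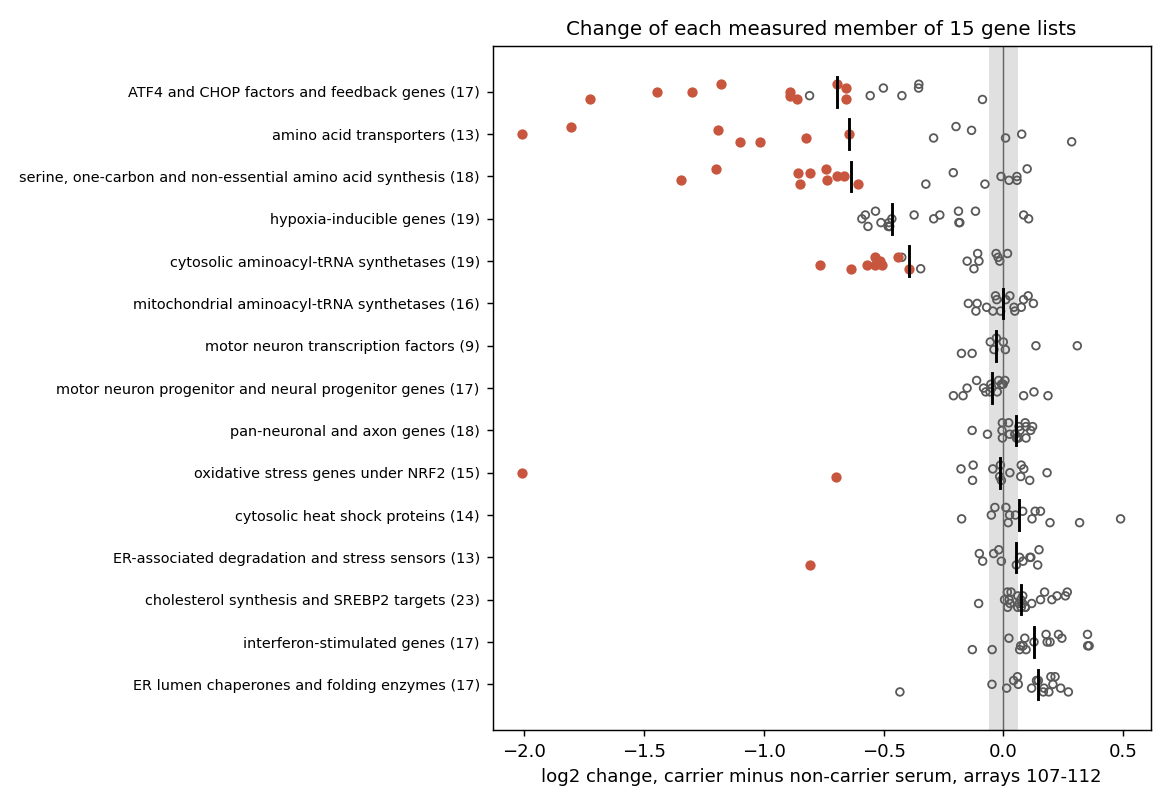
Log2 change (carrier minus non-carrier, horizontal axis) of every measured member of 15 lists, with the number of members in brackets. Red filled points were called with the shared spread, open points were not, black bars are medians and the grey band is the interquartile range of all genes (from -0.06 to 0.06). The ATF4 and CHOP, transport, synthesis, hypoxia and cytosolic synthetase lists have medians between -0.69 and -0.39, and that of ER lumen chaperones is 0.15.

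The ER lumen chaperones went the other way. Of 17 measured, 15 were higher and 2 lower with carrier serum, with a median of 0.15. In 7 all carrier arrays lay above all non-carrier arrays, against 5.27% of all genes. None was called, on the 6 arrays or with the shared spread. Hspa5 (BiP) gave 10.72, 10.83 and 10.51 with non-carrier serum and 10.91, 10.99 and 10.98 with carrier serum. Array NCAR109, highest for the ATF4 genes, was lowest here. The change of Hspa5 was 0.27 (standard error 0.091, unadjusted p 0.0219, adjusted p 0.306 with the shared spread, limma).

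Hsp90b1, the ER form of HSP90, changed by 0.24, Calr, the calcium-binding chaperone calreticulin, by 0.21, Manf, a secreted factor of the ER response, by 0.22 and Pdia4, a disulfide isomerase, by 0.19. The groups of these 4 genes were apart. Xbp1, the factor that drives many of them, had 10.76, 10.74 and 10.76 against 10.90, 10.86 and 10.93. The 2 lower members were P4hb, a disulfide isomerase, at -0.05, and Ero1l (now Ero1a), an ER oxidase that is also induced by hypoxia and by CHOP, at -0.43. Herpud1, a gene of ER-associated degradation that ATF4 also induces, changed by -0.81, with 9.35, 9.16 and 9.74 against 8.71, 8.74 and 8.38. It was the 1 gene called with the shared spread among 13 genes of ER-associated degradation and stress sensing, against 0.321% of all genes called lower. The median of these 13 was 0.05.

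Hypoxia-inducible genes made up a further group. Of 19 measured, 17 were lower and 2 higher, with a median of -0.47. In 15 all carrier arrays lay below all non-carrier arrays (5.26% of all genes). 14 were lower at an unadjusted p under 0.05 on the 6 arrays (limma, 2.68% of all genes). None was called on the 6 arrays or with the shared spread. Pfkfb3 gave 9.58, 9.55 and 9.68 with non-carrier serum and 8.90, 9.15 and 8.99 with carrier serum, a change of -0.59 (unadjusted p 0.000232, limma). Vegfa, the angiogenic growth factor, had 10.58, 10.46 and 10.70 against 9.89, 10.20 and 9.96, a change of -0.57. In both genes array HEMI110 was the lowest.

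P4ha1, a collagen prolyl hydroxylase, changed by -0.51, the hexokinase Hk2 by -0.48, the glucose transporter Slc2a1 by -0.47 and Pdk1, which holds back pyruvate oxidation, by -0.58. Ldha, lactate dehydrogenase, changed by -0.19 without an unadjusted p under 0.05. Outside this list, the glycolytic gene Pgk1, named after its values were seen, was among the 63 called genes with a change of -0.35. Stc1, a secreted glycoprotein, had a change of -0.65 with a non-carrier SD of 0.0330.

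The array pattern of the hypoxia genes was not that of the ATF4 genes. Relative to the non-carrier mean of each list, the mean log2 level of the ATF4 and CHOP list was -0.05, -0.23 and 0.28 on arrays NCAR107, NCAR108 and NCAR109, and -0.79, -0.64 and -0.93 on arrays HEMI110, HEMI111 and HEMI112. The transporter, synthesis and cytosolic synthetase lists had the same order among the non-carrier arrays, NCAR109 highest and NCAR108 lowest. The hypoxia list gave -0.03, 0.01 and 0.01 on the non-carrier arrays and -0.49, -0.20 and -0.35 on the carrier arrays. Array HEMI110 was the lowest of the 6 arrays in 15 of the 19 hypoxia genes. Array HEMI112 was the lowest in 50 of the 63 genes called lower, which are not the ATF4 and CHOP list alone. In most of these genes the carrier arrays were all below, so that the lowest could only be a carrier array. The shares over all genes were not counted. The median SD of the hypoxia genes was 0.0663 among the non-carrier and 0.163 among the carrier arrays, the reverse of the order in the ATF4 and CHOP list, with 0.282 and 0.165.

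**Figure D3:**
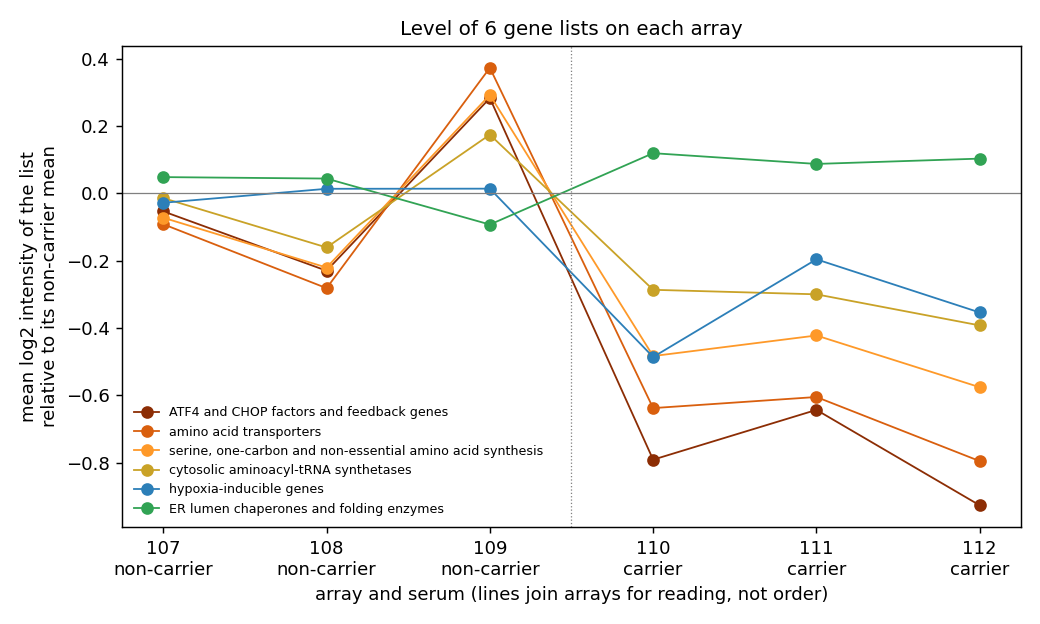
Mean log2 intensity of 6 gene lists on each array (horizontal axis), relative to the mean of the non-carrier arrays for that list (vertical axis). The ATF4 and CHOP, transporter, synthesis and synthetase lists are highest on array NCAR109 and lowest on HEMI112, the hypoxia list is level on arrays NCAR107 to NCAR109 and lowest on HEMI110, and the chaperone list is lowest on NCAR109.

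Among genes with a mean log2 value of at least 6 in a group, the smallest p on the 6 arrays was that of a gene in none of the lists written by function. Ciart (Gm129 in the deposited table), a repressor of the circadian clock, gave 8.24, 8.09 and 8.50 with non-carrier serum and 7.15, 7.18 and 7.11 with carrier serum. The carrier arrays spanned less than 0.1 log2 units. Its change was -1.13 (standard error 0.108), or 2.19-fold, with an adjusted p of 0.238 on the 6 arrays and 0.00169 with the shared spread (limma). Bhlhe40, a clock and hypoxia-induced repressor, changed by -0.50, and Per2, a clock gene named after its values were seen, by -0.25.

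Other genes chosen by the size of their p among those whose groups were apart were Hmox1, heme oxygenase, which gave 7.29, 7.27 and 7.50 against 6.50, 6.80 and 6.66 (-0.70), and Cox6b2, a subunit form of cytochrome oxidase (-0.56). Hmox1 and Slc7a11 were also the members called with the shared spread among 15 genes under the oxidative stress factor NRF2, against 0.321% of all genes called lower. The median of these 15 was -0.01. Txnip, an inhibitor of glucose uptake and a gene of the study's own classifier, changed by -0.68. P2rx3, an ATP-gated channel of sensory neurons, changed by -1.17, with 8.75 ± 0.638 (SD, n = 3) against 7.58 ± 0.128 (SD, n = 3), and Hoxb9, a factor of trunk identity, by -0.87. Both were called with the shared spread, Hoxb9 not without array NCAR109. Cacng3, a subunit that escorts AMPA receptors, changed by -0.85 and was not called (adjusted p 0.123, limma, shared spread).

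Fewer genes had a large or a called change upward than downward. A change over 0.5 log2 units, in genes with a mean of at least 6 in a group, was found in 71 genes downward and 12 upward. A gene enters this count through the group in which it is high, and over all genes, dim ones included, the counts were 97 and 45. The 1 gene called higher with the shared spread was Srsf2, a splicing factor, at 0.28 (adjusted p 0.0465, limma). Among the genes with the smallest p on the 6 arrays, Pde4d, a phosphodiesterase of cyclic AMP, changed by 0.44 and Mc4r, a melanocortin receptor, by 0.47. Jup, the junction protein plakoglobin, changed by 0.24, Snn, stannin, by 0.27 and the growth factor Bmp2 by 0.27. None of these 5 was called.

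The stress genes were widely spread among the non-carrier arrays. This spread was known when the run was chosen, and it is given as a description. In the 63 genes called lower with the shared spread, the groups were apart in all 63. Array NCAR109 was highest of the 6 arrays in 62 (against 18.6% of all genes), and array NCAR108 was the lowest non-carrier array in 58. These genes were picked as lower with carrier serum, which favours groups that are apart and small p-values on the 6 arrays. Their highest array could only be a non-carrier one, so the share of all genes is not a like comparison. The share of all genes for NCAR108 was not counted. In 58 of the 63 the SD of the non-carrier arrays was above the SD within groups over all 59 arrays. The median ratio was 2.50, against 0.884 for all genes. The shared fit also has more residual degrees of freedom, and the part of each in its smaller p-values was not separated. All 63 had an unadjusted p under 0.05 on the 6 arrays. Without array NCAR109, 25 genes were called lower with the shared spread, all of them among the 63. They included all 7 called transporters and 7 of the 10 enzymes, 4 of the 9 cytosolic synthetases, Cars, Gars, Tars and Yars, and 4 of the 10 ATF4 and CHOP factors, Chac1, Atf3, Eif4ebp1 and Sesn2. Atf4, Ddit3, Ciart, Hmox1, Herpud1 and Hoxb9 were not among the 25. Without array NCAR109 the median of the ATF4 and CHOP list was -0.56, and 16 of its 17 members had carrier arrays all below both remaining non-carrier arrays, against 8.04% of all genes. Array NCAR108 also had the highest level of the 3 non-carrier arrays for the marker lists of pluripotent (14 genes), endothelial (10), red blood (10), microglial (12) and endodermal (14) cells. It lay between 0.10 and 0.20 log2 units above their non-carrier means. On the carrier arrays these lists lay between -0.11 and 0.11, and their part in the result was not tested. Of their members, 5, 4, 6, 2 and 3 stayed below a log2 value of 6 on all 6 arrays. Array NCAR108 was also the highest non-carrier array for lists that mark no cell type, such as immediate-early genes (0.14) and cholesterol synthesis (0.13). It was not for others, such as cytosolic heat shock proteins (0.01) and p53 targets (-0.02). Its median intensity, 163, was the highest of the 6 arrays.

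**Figure D4:**
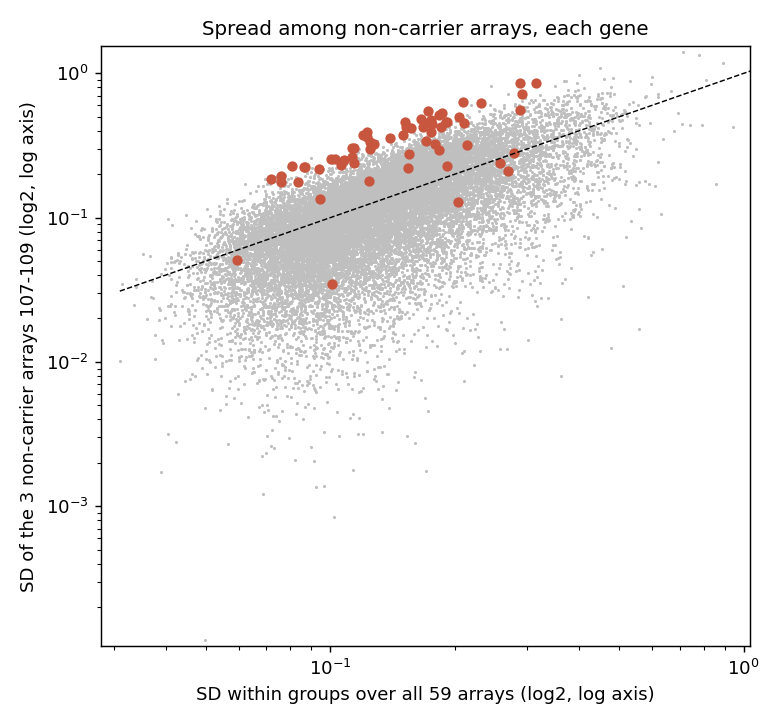
SD of each gene among the 3 non-carrier arrays NCAR107 to NCAR109 (vertical axis) against its SD within groups over the 59 arrays (horizontal axis), both in log2 units on log axes, with the 63 genes called lower in red and all others in grey. The dashed line marks equal SDs, and 58 of the 63 red points lie above it.

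The run was set beside the other 8 runs of the series, 53 arrays, which were grouped by the names and number ranges in their titles. The labels give no batch, so a run may mix batches of cells. Arrays of the run named 10wk carry 10 weeks in their labels, and those of all other runs 9 weeks. The mean level of the ATF4 and CHOP list differed by -0.79 log2 units between the sera here, and by between -0.44 and 0.15 in the other runs. Its non-carrier level, 8.60, lay within the range of the other runs, from 7.86 to 8.86, and its carrier level, 7.81, was the lowest of the 9 runs. The SD of the list level among non-carrier arrays, 0.261, was the highest of the 9 runs, just above the 0.255 of the run from NCAR133 to HEMI138. A wide spread here was known beforehand, so this rank is no independent result. For the hypoxia list the level was the lowest of the 9 runs with both sera, 9.07 and 8.73. The difference, -0.35, was also the lowest, and it was below 0 in 8 of the 9 runs. The chaperone list had its highest difference here, 0.10, against between -0.04 and 0.03 elsewhere.

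**Figure D5:**
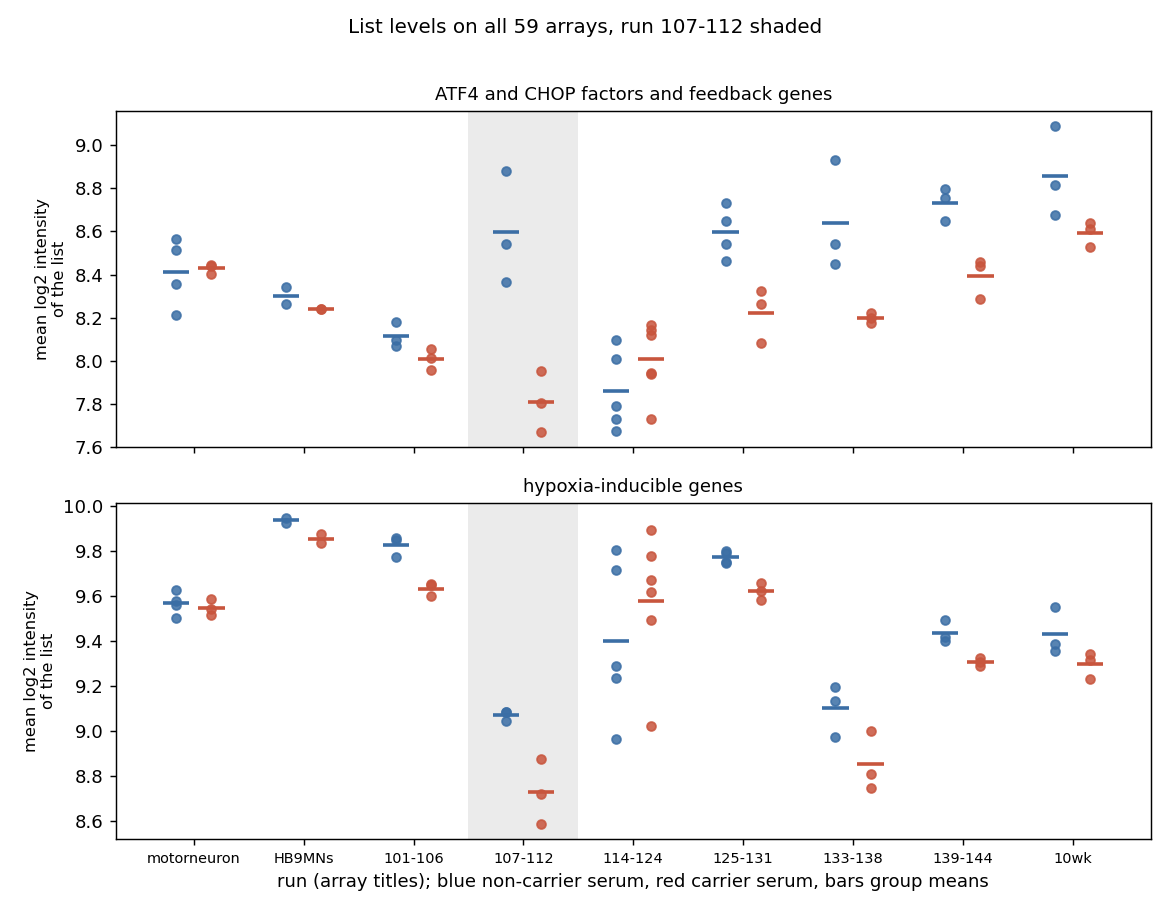
Mean log2 intensity (vertical axes) of the ATF4 and CHOP list (top) and of the hypoxia list (bottom) on all 59 arrays by run (horizontal axis), with blue points for non-carrier and red points for carrier arrays and bars for group means. In the shaded run NCAR107 to HEMI112 the means of the top panel are 8.60 and 7.81, and those of the bottom panel, 9.07 and 8.73, are the lowest of the 9 runs.

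The difference from the mean change of the other 8 runs was tested gene by gene on all 59 arrays with limma. 17 genes (0.0867%) had a larger decrease here at an adjusted p under 0.05, and none a larger increase (575 genes at an unadjusted p under 0.05, of which 165 upward). 5 of the 17 were amino acid transporters, 4 were ATF4 and CHOP factors and feedback genes, 4 were synthesis enzymes and 1, Cars, was a synthetase. Slc7a11 differed by -1.70 (standard error 0.263, adjusted p 0.00138, limma), from a mean of -0.31 in the other runs, and was lower with carrier serum in 7 of the 9 runs. Slc7a3 differed by -1.45, Chac1 by -1.41, Atf3 by -1.12 and Eif4ebp1 by -1.05. Atf4 differed by -0.43 and was not called (adjusted p 0.59, limma). The test shares its spread over all runs, and without array NCAR109, or without array HEMI112, it called no gene lower (299 and 341 genes lower at an unadjusted p under 0.05). Without array NCAR108 it called 44.

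The genes of the study's own classifier were lower too, but they are no independent evidence here, since the study chose them on arrays of this series, and which arrays those were is not given by the labels. Of its 38 targets of ATF4 or CHOP, 35 were lower, with a median of -0.52, and 25 were called with the shared spread (0.321% of all genes). Of its 96 other genes, 72 were lower, with a median of -0.05, and 1 was called.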

How the data were processed

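The authors hybridised RNA from embryoid bodies to Affymetrix mouse exon arrays, summarised it with RMA, took the mean of the exons as the value of a gene, removed outlier arrays and normalized all arrays together. The values they deposited are linear intensities, 1 per gene symbol and array. The genome build is not given in the sources used here. Of 19613 symbols, 17555 matched RefSeq symbols directly and 1776 as synonyms. Intensities were taken to log2 with nothing added, and tested with limma 3.58.1 (lmFit, eBayes; R 4.3.3). Tests were two-sided, and p-values were adjusted by the Benjamini-Hochberg method across the full table, with 0.05 as the threshold. The main comparison used the 6 arrays. An alternative, called the shared spread, fitted the 18 groups of run by serum on all 59 arrays, and the difference from the other 8 runs is a contrast of that fit. No gene was filtered out. Runs were read from titles, and no label gives a batch, so a run may mix batches of cells. Precision is limited by how many arrays there are.

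The arrays and the gene lists were chosen with earlier results of these data known. Lists, 37 with 758 measured entries, were therefore described by counts and medians without a test. Named genes were a set of pathway and motor neuron genes, the 10 lower and 10 higher genes with the smallest p among those whose groups were apart and whose mean was at least 6 in a group, the 4 members of each list with the largest t, and the 5 largest differences from the other runs. Predicted loci were passed over, and some of these genes are left out of the text. Other members of a list, and genes given as named after their values were seen, fall outside this rule. The limma steps were tested on simulated data, in which every array of a gene had the same spread. A wider spread among the non-carrier arrays, as in the genes called lower, was therefore not covered by it. The motif searches other than TGATGNAAN were added after the data were seen. Alternatives were quantile normalization, centring on the array median, leaving out dim genes, 16 added before log2, eBayes with trend and robust, array weights, 4 motor neuron genes as covariates and leaving out each array.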

Additional observations from a re-analysis of the deposited data

Results flagged for a closer look

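17 genes were picked out because their change differed between runs, being lower here than in the mean of the other 8 runs in the limma test of the difference itself on 59 arrays. The differences on the log2 scale were -1.70 for Slc7a11, -1.45 for Slc7a3, -1.41 for Chac1, -1.12 for Atf3, -1.05 for Eif4ebp1 and -1.05 for Mthfd2. For P2rx3 the difference was -0.93, for Slc7a1 -0.91, for Slc7a5 -0.85, for Slc1a4 -0.80 and for Pck2 -0.80. It was -0.69 for Sesn2, -0.68 for Arl14ep (2700007P21Rik in the deposited table), -0.61 for Shmt2, -0.56 for Cars, -0.54 for Aldh18a1 and -0.50 for Gpt2. In each of the 17 the change of arrays NCAR107 to HEMI112 was the lowest of the 9 runs, against 1542 of all 19613 genes. The 17 were picked for a change below the mean of the other runs, which favours this rank, so it adds no support. Arl14ep, Pck2 and P2rx3 were in none of the lists written for this comparison. Without array NCAR109, or without array HEMI112, none of the 17 was called. The part of the spread among the non-carrier arrays in these differences was not tested otherwise.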

How the results depend on the processing

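On the 6 arrays, 0 genes were called lower by limma (526 at an unadjusted p under 0.05). This became 5 when dim genes were left out (Ciart, Ddit4, Pfkfb3, Bhlhe40 and Cox6b2), 3 with trend and robust (Ciart, Ddit4 and Pfkfb3), 63 with the shared spread and 65 when 4 motor neuron genes (Olig2, Isl1, Mnx1, Lhx3) entered that fit as covariates. The 0 genes higher became 1 with the shared spread and 3 with the covariates. Leaving out each array in turn gave 0 in both directions. The other settings were applied to the shared spread after seeing the data. There 0.321% of all genes were lower, and 0.586% with array weights. Leaving out each array gave 0.127% (25 genes, without NCAR109) to 0.459% (90 genes, without NCAR108). The 0.0051% higher became 0.0102% with 16 added before log2, 0.0459% with array weights, 0.0204% without dim genes, 0 after centring (361 genes at an unadjusted p under 0.05), 0.0102% with trend and robust, 0.0153% with the covariates, 0.0153% with quantile normalization, and 0 to 0.0408% without each array. Where dim genes were left out fewer genes were tested, and the share is still given of all 19613. The 17 differences from the other runs became 44 with array weights and 0 to 44 without each array, and upward differences 0 to 3.

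List medians without each array ran from -0.79 to -0.56 for ATF4 and CHOP, -0.78 to -0.47 for transporters, -0.81 to -0.42 for synthesis, -0.50 to -0.27 for cytosolic synthetases, -0.52 to -0.37 for hypoxia and 0.0925 to 0.183 for chaperones. With the covariates those for hypoxia and chaperones were -0.28 and 0.0581. Signs turned without single arrays for Fgf21 (-0.286 to 0.0353), Hars (-0.0436 to 0.0111), Lhx3 (-0.0259 to 0.0360), Qars (-0.0615 to 0.0160) and Usp18 (-0.0581 to 0.582). Lhx3 also turned to 0.0065 after centring and 0.0018 after quantile normalization. The cause of these shifts was not tested. No paired analysis was possible because the array numbers in the labels are not shared between the sera. The table has no detection calls, so signal over background is unknown.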

Other observations

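Some gene groups lay near 0 or moved with a single array. Of 17 measured interferon-stimulated genes, 15 were higher and 2 lower with carrier serum, with a median of 0.13. In 1 the carrier arrays were all above (5.27% of all genes), and none was at an unadjusted p under 0.05 (limma). The list was 0.35 above its non-carrier mean on array HEMI110, 0.08 on array HEMI111 and 0.00 on array HEMI112. Usp18, a brake on interferon signals, gave 5.91, 6.16 and 6.47 with non-carrier serum and 7.35, 6.17 and 6.07 with carrier serum. Without array HEMI110 its change was -0.06. 9 of the 17 genes stayed below a log2 value of 6 on all 6 arrays.

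Of 23 genes of cholesterol synthesis and SREBP2 targets, 22 were higher and 1 lower, with a median of 0.07 here and of 0.06 over the means of the other 8 runs, and none was called. Idi1, an isomerase of the sterol pathway, changed by 0.27. On array NCAR109 the list was 0.14 below its non-carrier mean and on array NCAR108 it was 0.13 above it. The carrier arrays were all above in 3 of the 23 (5.27% of all genes) and all below in 0 (5.26%). Of 14 cytosolic heat shock proteins, 11 were higher and 3 lower, with a median of 0.07, led by Hspa1a, the inducible HSP70, with 7.93, 7.32 and 7.52 against 8.01, 8.12 and 8.10. Of 48 cytosolic ribosomal proteins, 34 were lower and 14 higher, with a median of -0.05 here and in the other runs. Markers of pluripotent, endothelial, blood, microglial and endodermal cells had medians between -0.06 and 0.07, with none called on either spread.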
